A study of Mus musculus with 9 samples.

Results

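Collagen genes were taken from the ovarian transcriptome of mice on 2 diets as all genes whose symbol has the form Col, a number, a and a number. The RefSeq annotation of GRCm38.p6 holds 44 such symbols, and 41 of them had a row of their own with the status OK in all 3 groups, out of 33450 rows in the table. The remaining 3 are described beside their class: Col1a2 carried the status FAIL in 1 group, and Col7a1 and Col20a1 shared a row with another gene. The RNA came from whole ovaries of the inbred mouse strain C57BL/6J, taken at an age of 15 weeks when the diets had run for 10 weeks. The control group comprised 3 mice on standard chow with 16% fat. A 60% fat diet was given to the other 6, of which 3 stayed lean (HFLN) and 3 became obese (HFOB), so that these groups were formed by the response of the animal and not by assignment. No transgene or engineered allele is named in the labels.

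Collagens are secreted proteins of 3 chains wound into a triple helix, a shape that depends on regularly spaced glycine residues. Fibrillar collagens form the tensile fibres of connective tissue, type IV collagen forms the sheet of basement membranes, and type VI collagen forms beaded microfilaments that link cells to the fibres around them. In the ovary, fibrillar collagen fills the cortical stroma and the theca, type IV collagen lies in the basal lamina of follicles and in the walls of vessels, and this matrix is taken apart and rebuilt as follicles grow, rupture and luteinise.

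Levels are FPKM as the authors deposited them, a measure that divides fragments by transcript length and by sequencing yield, with 1 value and 1 interval of unstated confidence level per group. Wherever 3 values stand together they are in the order control, HFLN, HFOB. The animals of a group are combined in these values, so none carries an SD or a p-value and the depth per library is unknown. For collagen genes of at least 1 FPKM, the upper bound lay a median of 45.9% above the value (34.4% to 120.0%). Stromal cells were represented in all groups: the fibroblast proteoglycan gene Dcn stood at 220, 214 and 227 FPKM, and the stromal transcription factor gene Tcf21 at 83.2, 80.3 and 88.2. From a whole ovary, the source cell of a collagen cannot be read, and fewer cells of a type cannot be told apart from less RNA per cell.

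Of the 41 collagen genes, 32 reached 1 FPKM in at least 1 group, and only these enter the counts below. Col9a3 reached 1 FPKM only in HFLN and Col8a1 only in control, so the filter fixed their direction against the other groups. Their levels spanned a wide range, with 6 genes at 100 FPKM or more, 11 between 10 and 100 and 15 between 1 and 10. Summed over all 41 genes, collagen FPKM came to 1603, 1633 and 1507. As a share of the FPKM of all protein-coding genes, which itself summed to 506619, 435243 and 474767, this was 0.316%, 0.375% and 0.317%, so that HFOB was below control by the sum and level with it by the share. The 6 most abundant genes, Col6a1, Col4a1, Col3a1, Col4a2, Col1a1 and Col6a2, held 73.6%, 73.2% and 72.2% of these sums. Col1a2 is not in the sums, and its control value of 275 FPKM was second to that of Col6a1.

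**Figure D1:**
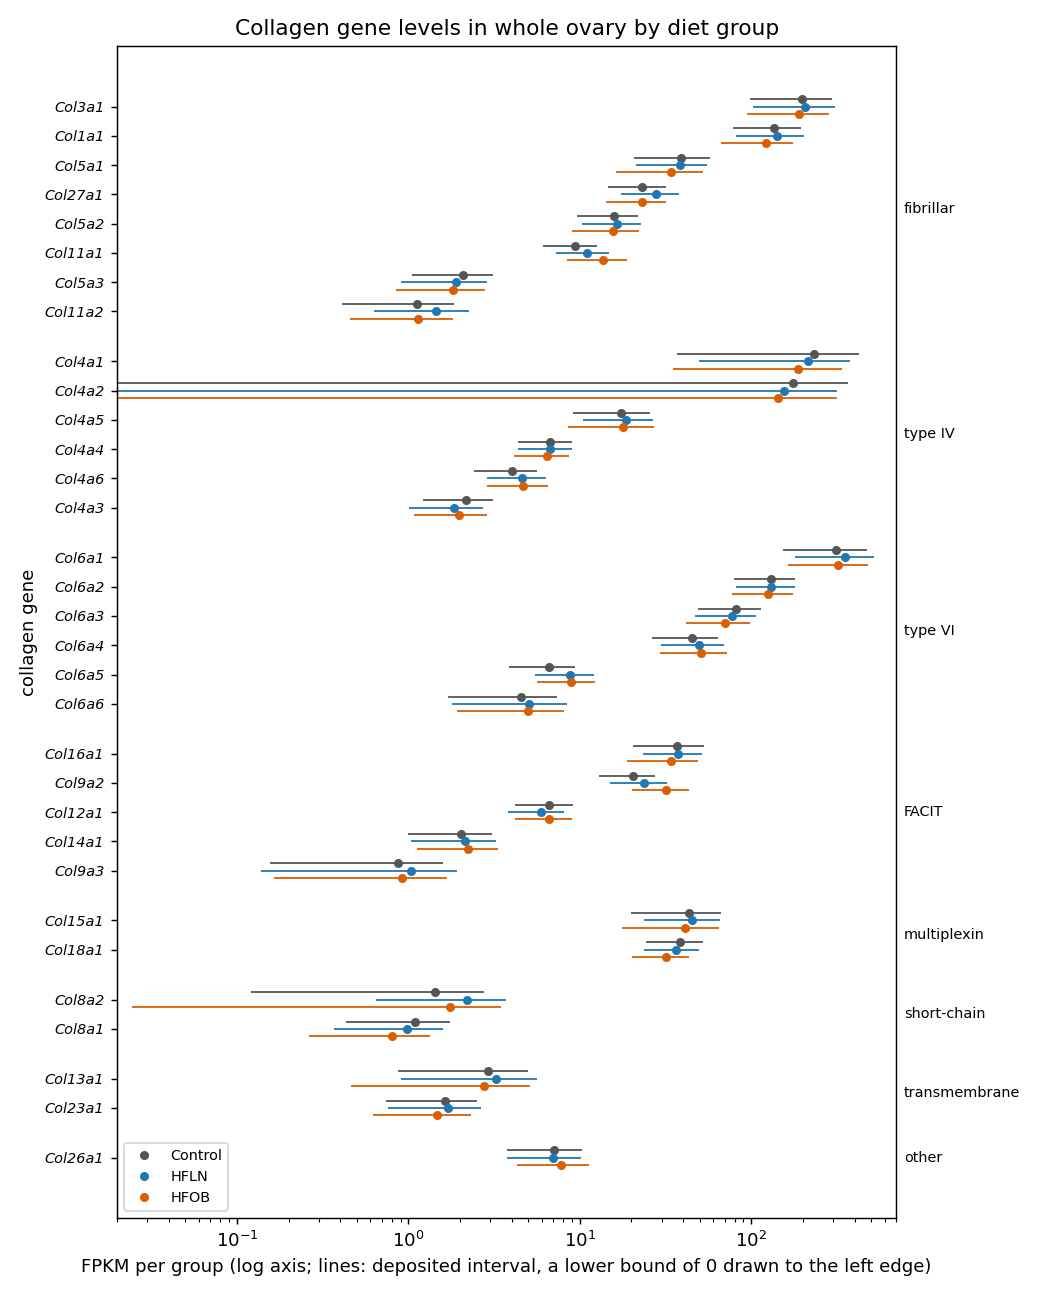
FPKM of the 32 collagen genes of at least 1 FPKM in control (grey), HFLN (blue) and HFOB (orange) on a log axis, grouped by class, with the deposited interval of each value as a line. Within every gene the 3 intervals overlap, and the order of abundance within classes, from Col6a1 at over 300 FPKM downwards, spans far more than the groups do.

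By class, type VI genes held the largest share of collagen FPKM, at 36.1%, 38.0% and 38.5%. The 6 type IV genes came next in control at 27.2%, with 24.5% in HFLN and 24.0% in HFOB. Their sum stood at 436, 400.5 and 361 FPKM, highest in control, but their share of protein-coding FPKM was 0.0861%, 0.0920% and 0.0761%, highest in HFLN. Fibrillar collagens without Col1a2 held 26.4%, 27.2% and 26.6%. FACIT collagens, which decorate the surface of fibrils, held 4.18%, 4.32% and 5.03%, and summed to 67.0, 70.5 and 75.7 FPKM. The higher sum in HFOB rested on 1 gene: without Col9a2, a comparison added after the values were seen, the FACIT sum was 46.7, 47.0 and 44.0 FPKM. No error can be put on these sums, since the intervals of single genes are not independent.

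**Figure D2:**
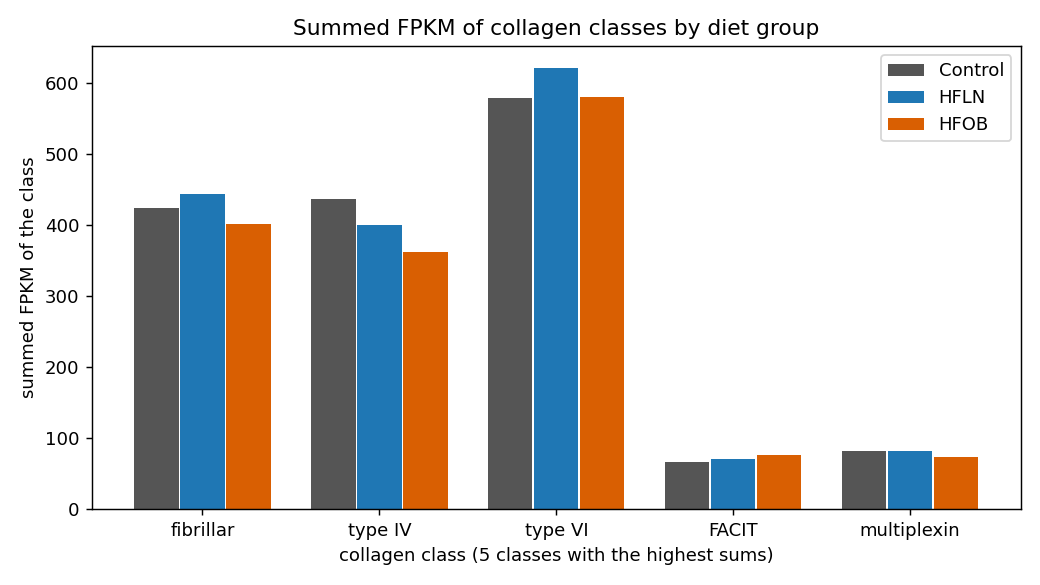
Summed FPKM of the 5 collagen classes with the highest sums in control, HFLN and HFOB, as bars from 0, without Col1a2. Type IV is highest in control at 436 and lowest in HFOB at 361, and FACIT collagens go from 67.0 to 75.7 in the same groups, a difference carried by Col9a2; as a share of protein-coding FPKM, type IV is instead highest in HFLN at 0.0920%.

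HFLN was set against control to ask what goes with the diet in the absence of obesity. Most collagen genes were a little higher in HFLN: 22 of 32 were higher and 10 lower, against 50.4% higher and 49.6% lower among 12604 protein-coding genes of at least 1 FPKM. The median difference of log2(FPKM + 1) was 0.05, beside 0.00 over all these genes. A fold of 1.2 on that scale was passed by 2 genes, Col8a2 and Col6a5, both higher in HFLN, and by 0 in the other direction. Of all protein-coding genes 6.34% were higher and 8.39% lower past this fold, so a share of 2 in 32 is near the background. Deposited intervals were apart in 0 of 32 collagen genes and in 0.0873% of all genes.

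Mice that became obese were set against the same controls. Here 13 collagen genes were higher and 19 lower, against 46.1% and 53.9% of all genes, with a median log2 difference of -0.03 beside -0.01. Past 1.2-fold, 3 genes were higher, Col9a2, Col11a1 and Col6a5, and 3 were lower, Col4a1, Col4a2 and Col18a1, all 3 components of basement membranes. Over all genes 3.62% were higher and 7.25% lower past this fold. The lower side depended on the scaling between groups: the split of 3 higher and 3 lower became 3 and 1 with the median gene difference set to 0, and 3 and 0 with the 75th percentile of FPKM made equal, where the median also changed sign to 0.0147. Intervals were apart in 0 of 32, beside 0.190% of all genes.

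HFOB was then set against HFLN, 2 groups that share the diet and differ in body weight. In HFOB 23 of 32 collagen genes were lower than in HFLN and 9 were higher, where all genes had 53.4% lower and 46.6% higher. The median log2 difference was -0.09, beside -0.01 over all genes, and the lower quartile of all genes also lay at -0.09. Only Col9a2 and Col11a1 passed 1.2-fold, both higher in HFOB, and 0 were lower past it (4.09% and 5.76% of all genes). The count of 0 lower depended on the setting: it was 1 (Col27a1) with the 75th percentile made equal, 3 (Col11a2, Col27a1 and Col8a2) with a pseudocount of 0.1 FPKM and 4 (also Col8a1) with none. Intervals were apart in 0 of 32 genes, beside 0.0397% of all genes, and 0 collagen genes were past 2-fold with intervals apart, beside 0.0317%. Over the 3 groups, HFOB was the lowest in 17 of 32 collagen genes and in 34.0% of all genes, and HFLN was the lowest in 3 of 32 and in 32.4% of all genes. HFLN was the highest in 16 of 32, beside 36.1%, HFOB in 7 of 32, beside 26.7%, and control in 9 of 32, beside 37.2%. Control was the lowest in 12 of 32, beside 33.6%. The 3 comparisons share their groups and are not independent of each other.

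Markers of the oviduct, the surface epithelium and luteal cells were also highest in HFLN and lowest in HFOB by their sums. Pericyte sums, given below, had the same order by small differences. The oviduct lies against the ovary. All 9 oviduct and cilia markers were higher in HFLN and lower in HFOB than in control, with summed levels of 470, 592 and 379 FPKM. Surface epithelium markers were higher in HFLN than in control in 9 of 9 and lower in HFOB than in HFLN in 8 of 9. Their sums were 364, 434 and 352 FPKM. Of 4 luteal markers counted, 3 were higher in HFLN than in control and 4 lower in HFOB than in HFLN. The luteal sums were 464, 556 and 409 FPKM. Of all genes 50.4% were higher in HFLN and 53.9% lower in HFOB than in control, and 53.4% were lower in HFOB than in HFLN. None of the oviduct, surface epithelium and luteal markers was at 0 in every group, and their part in the collagen values was not tested. Stromal fibroblast markers had another order, with 5 of 6 higher in HFOB than in HFLN, beside 46.6% of all genes, and sums of 457, 452 and 487 FPKM. Further sums were 2089, 1707 and 1819 FPKM for granulosa cells and 3591, 3158 and 3244 for theca. They were 391, 369 and 411 for macrophages and 172, 177 and 183 for oocytes.

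**Figure D3:**
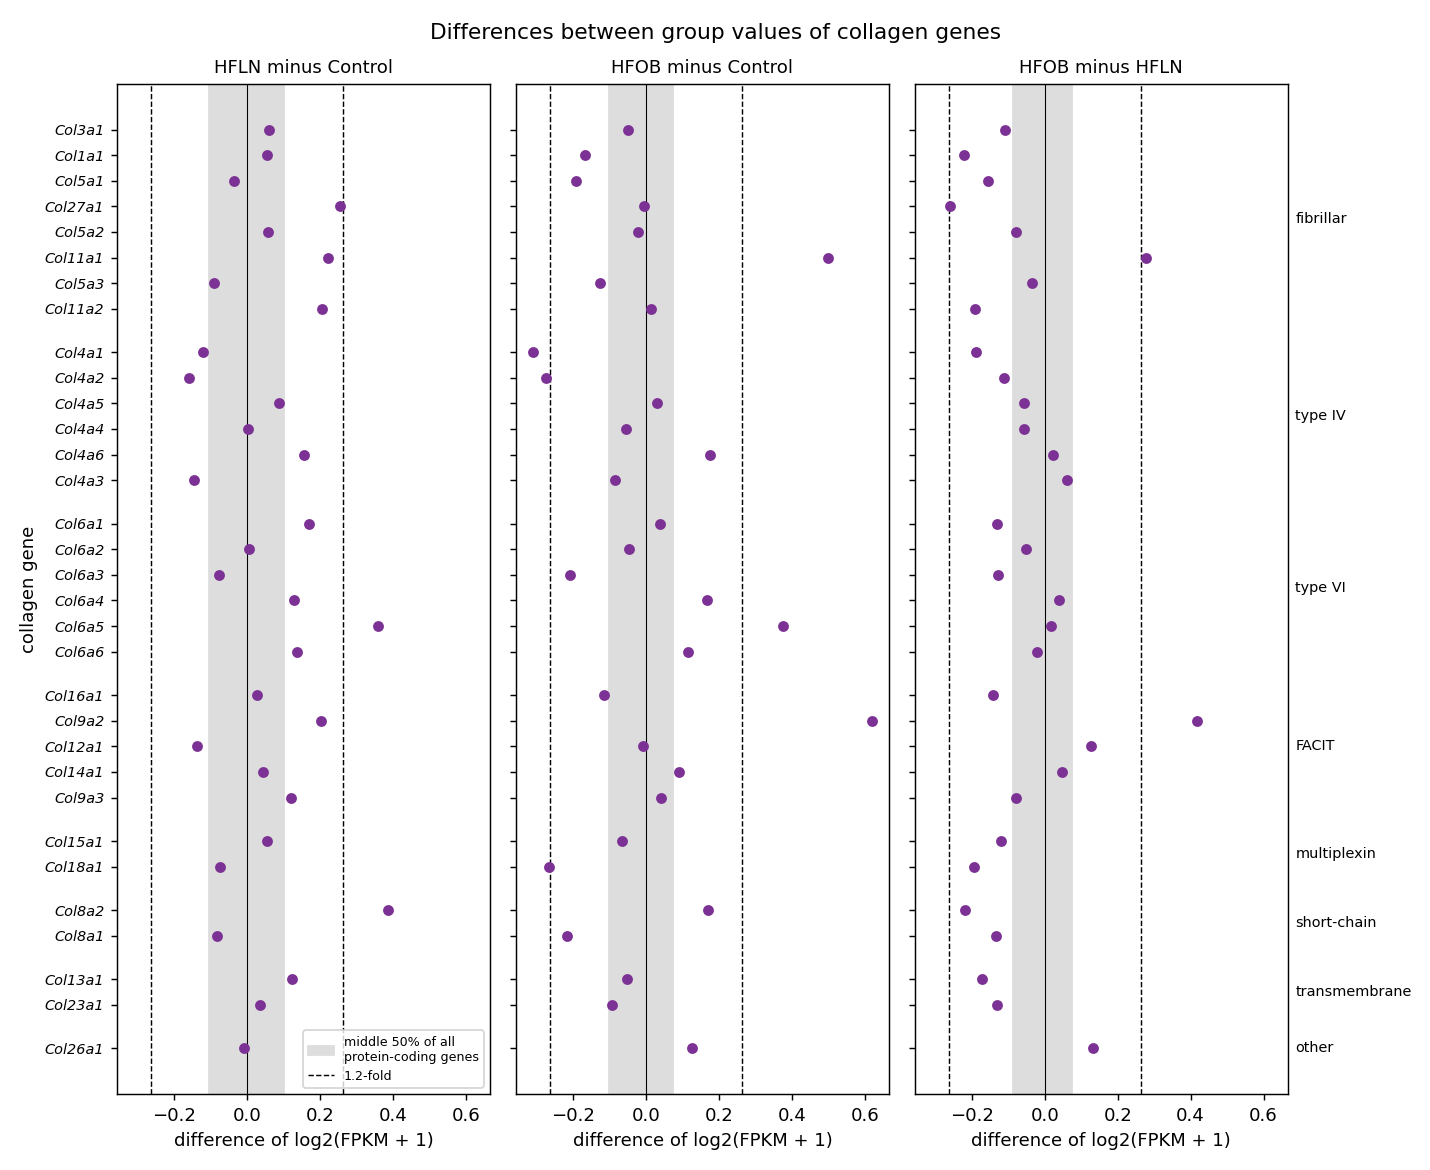
Difference of log2(FPKM + 1) for the 32 collagen genes, by class, in HFLN against control, HFOB against control and HFOB against HFLN, with the middle 50% of all protein-coding genes shaded and 1.2-fold dashed. Most points lie within 1.2-fold in each panel, Col9a2 and Col11a1 stand to the right in both panels of HFOB, and 23 of 32 lie left of 0 in HFOB against HFLN.

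Among the fibrillar collagens, Col3a1, whose type III chain is typical of pliable tissue, was the most abundant with the status OK in all groups, below Col1a2 in control and HFLN. It stood at 197 FPKM (deposited interval 97.8 to 295), 205 (103 to 307) and 190.0 (94.9 to 285). Col1a1, the main chain of type I collagen, stood at 136 (78.6 to 194), 142 (81.3 to 202) and 121 (66.5 to 176). Both were highest in HFLN and lowest in HFOB, by amounts well inside the intervals. The other chain of type I, Col1a2, had nearly equal values in control and HFLN, 275 and 276 FPKM. Its HFOB value of 251 had the status FAIL, with an upper bound of 149 below the value, and is not used. Col1a2 thus stood at 2.02 times the FPKM of Col1a1 in control and 1.95 times in HFLN.

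Type V collagen is built into type I fibrils and limits their width. Col5a1 stood at 39.1, 38.2 and 34.1 FPKM, and Col5a2 at 15.8, 16.5 and 15.5. Col5a2 is the neighbour of Col3a1 on chromosome 1, 24624 bp away, and the ratio of Col3a1 to Col5a2 was 12.4 in control, 12.5 in HFLN and 12.2 in HFOB. Col5a3, the least abundant type V chain, had 2.08, 1.89 and 1.82 FPKM. Col27a1, a fibrillar collagen first known from cartilage, stood at 23.1, 27.7 and 22.9 FPKM, so that HFLN alone was apart from the other groups, within overlapping intervals.

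Col11a1, which nucleates thin fibrils in cartilage and other tissues, was the fibrillar gene with the widest difference. Its level was 9.33 FPKM (6.12 to 12.5), 11.1 (7.25 to 14.9) and 13.6 (8.46 to 18.8). HFOB was 1.46 times control and 1.23 times HFLN, at log2 differences of 0.50 and 0.28, and its interval overlapped both. The partner chain Col11a2 did not share this order, with 1.12, 1.45 and 1.14 FPKM.

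Col4a1 and Col4a2, the chains of the common type IV network, were the most abundant basement-membrane genes. Col4a1 stood at 232 FPKM (36.6 to 427), 213 (49.6 to 377) and 187 (35.0 to 339), and Col4a2 at 174, 155 and 144 with lower bounds of 0 in every group. Both were highest in control and lowest in HFOB, where the log2 differences from control were -0.31 and -0.27. Their intervals are the widest of the abundant collagens, with upper bounds up to 84.2% above the value for Col4a1 and 120.0% for Col4a2. The ratio of Col4a1 to Col4a2 was 1.33, 1.37 and 1.2995.

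The 2 genes are neighbours on opposite strands of chromosome 8, and their annotated spans (11198423 to 11312889 and 11312805 to 11449287) overlap by 85 bp. The deposited table gives both the same locus, and the counting is not stated to use strand, so whether reads in the overlap went to the right gene is unknown. The stretch between the starts of the transcripts in the RefSeq promoter table is shown because both genes are transcribed through it, on opposite strands. It is 22 of the 85 bp. It is given for the plus strand of GRCm38.p6 from RefSeq, at chr8:11312805-11312826, with a GC-box motif in capitals.
Col4a1-Col4a2 start region: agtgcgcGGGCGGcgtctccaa

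The other type IV chains form networks of more restricted tissues and did not follow that order. Col4a5 and Col4a6, neighbours on the X chromosome with 1274 bp between them, stood at 17.4, 18.6 and 17.8 FPKM and at 4.03, 4.61 and 4.69 FPKM. The ratio of Col4a5 to Col4a6 was 4.32, 4.03 and 3.80. Col4a4 stood at 6.69, 6.71 and 6.40 and Col4a3 at 2.16, 1.86 and 1.98. Their spans on chromosome 1 overlap by 114 bp, and a further row of Col4a4 held 0.274, 0.221 and 0.228 FPKM. Of these 4 genes Col4a3 alone had its highest value in control.

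Of the multiplexins, collagens of vessel and epithelial basement-membrane zones, Col18a1 encodes the precursor of endostatin. It stood at 38.4 FPKM (24.4 to 52.5), 36.5 (23.6 to 49.4) and 31.8 (20.0 to 43.5), a log2 difference of -0.27 in HFOB from control. Col15a1 stood at 43.2, 44.9 and 41.2. HFOB had the lowest value of both genes. Of 7 endothelial markers 5 were lower in HFOB than in control, beside 53.9% of all genes, with a median log2 difference of -0.09 and 0 past 1.2-fold. Cldn5, the most abundant of the 7, was higher in HFOB, at 75.8, 71.3 and 90.4 FPKM. The summed level of the 7 was 219, 209 and 220 FPKM, and none was at 0 in every group. Pericyte markers, from cells that wrap small vessels, were lower in HFOB than in control in 5 of 5, beside the same 53.9%. Their sums were 92.7, 92.9 and 86.3 FPKM, with none at 0 in every group. The part of these cells in the lower values of Col4a1, Col4a2 and Col18a1 was not tested.

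Type VI collagen is assembled from Col6a1, Col6a2 and a further chain, most often Col6a3. Col6a1 was the most abundant collagen gene measured, at 311 FPKM (152 to 471), 350.3 (179 to 521) and 320.0 (163 to 477). Col6a2, 85161 bp away on chromosome 10, stood at 129.9, 130.3 and 126 FPKM, and Col6a3 at 81.3, 76.9 and 70.2. Col6a2 thus differed little, Col6a1 was highest in HFLN and Col6a3 was highest in control. The ratio of Col6a1 to Col6a3 was accordingly 3.83 in control, 4.55 in HFLN and 4.56 in HFOB.

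Col6a4, Col6a5 and Col6a6 are related alternatives to Col6a3 that lie side by side on chromosome 9. All 3 were lowest in control. Col6a4 stood at 45.2, 49.5 and 50.9 FPKM and Col6a6 at 4.53, 5.08 and 4.99. Col6a5 (chromosome 9, 105856070 to 105962463) had the widest difference of the class, at 6.62 FPKM (3.89 to 9.36), 8.78 (5.47 to 12.1) and 8.90 (5.59 to 12.2). Both diet groups stood above control by a log2 difference of 0.36 in HFLN and 0.38 in HFOB, with intervals that overlap. Related sequences among these 3 genes could have split reads between them, and how multiply aligned reads were counted is not stated.

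Col9a2, a chain of type IX collagen known from the surface of cartilage fibrils, had the widest difference of all collagen genes. It stood at 20.3 FPKM (13.0 to 27.6), 23.5 (15.0 to 32.0) and 31.7 (20.3 to 43.2). HFOB was 1.56 times control and 1.35 times HFLN, at log2 differences of 0.62 and 0.42. The intervals of HFOB and control still overlapped, from 20.3 to 27.6 FPKM. Its partner chains were low: Col9a3 had 0.870, 1.03 and 0.923 FPKM, and Col9a1 was listed at 0 in control, at 0.0322 in HFLN and at 0.00641 in HFOB. Col9a2 therefore stood at 23.3, 22.8 and 34.4 times Col9a3.

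Markers of cartilage were not higher along with Col9a2 and Col11a1. All 4 chondrocyte markers of at least 1 FPKM were lower in HFOB than in control, beside 53.9% of all genes. Of these Acan, at 1.26, 0.885 and 0.960 FPKM, reached 1 FPKM only in control, so the filter fixed its direction. Summed levels over the 6 listed were 143, 139.9 and 136 FPKM, nearly all of it from Cnmd. Matn1 and Matn3, which define cartilage, were at or below 0.0843 FPKM in every group, and Col2a1, the main cartilage collagen, at or below 0.0474. Adipocyte markers were higher in HFOB than in HFLN in 7 of 7, beside 46.6% of all genes. Against control 4 of 7 were higher, beside 46.1%, while Plin1, Retn and Adrb3 were lower. The adipocyte sum was 133, 130 and 204 FPKM, of which Fabp4 alone held 77.2, 87.2 and 139, and no marker was at 0 in every group. Smooth muscle markers, 7 of 7 above HFLN and 4 of 7 above control beside the same shares of all genes, summed to 1433, 1258 and 1440 FPKM. None was at 0 in every group. The part of these cells in the Col9a2 and Col11a1 values was not tested.

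The sequence just upstream of these 2 genes is shown because they are the collagens that stood highest in HFOB past 1.2-fold against both other groups. The stretches are from RefSeq on the plus strand of GRCm38.p6, at chr4:121039316-121039565 for Col9a2 and chr3:114030290-114030478 for Col11a1, and end at the base before the gene span. Capitals mark the GC box (GGGCGG) and the CCAAT box (CCAAT) on either strand.
Col9a2: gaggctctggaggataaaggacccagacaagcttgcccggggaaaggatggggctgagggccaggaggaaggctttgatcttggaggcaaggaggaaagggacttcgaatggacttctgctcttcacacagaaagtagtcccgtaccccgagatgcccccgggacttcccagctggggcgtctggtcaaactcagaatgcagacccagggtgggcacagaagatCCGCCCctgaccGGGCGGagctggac
Col11a1: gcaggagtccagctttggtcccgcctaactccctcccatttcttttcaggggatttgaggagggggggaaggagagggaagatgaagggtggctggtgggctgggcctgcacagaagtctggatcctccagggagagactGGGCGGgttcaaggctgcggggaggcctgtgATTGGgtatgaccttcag

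The Col9a2 stretch held 2 GC boxes and 0 CCAAT boxes, and the Col11a1 stretch held 1 of each. Neither held the TATA box letters TATAAA. In the 250 bases before the start, searched on both strands, GGGCGG was found in 18 of 25 collagen genes with an entry, beside 35.4% of all 27025 genes and 45.8% of protein-coding genes in that table. CCAAT was found in 8 of 25, beside 37.5% of all genes, and TATAAA in 3 of 25, beside 14.3%. TATAAA was found before Col3a1, Col11a2 and Col13a1. These matches describe letters in a window and are not binding sites.

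Of the remaining FACIT collagens, Col16a1 stood at 36.8, 37.5 and 33.9 FPKM, Col12a1, which is laid down along type I fibrils under load, at 6.62, 5.93 and 6.58, and Col14a1 at 2.04, 2.13 and 2.24. Col26a1, a collagen-like gene first described in testis and ovary, stood at 7.04, 7.00 and 7.77. Col13a1 and Col23a1, which span the cell membrane, stood at 2.91, 3.26 and 2.78 and at 1.63, 1.70 and 1.47. In the rows used, none of these genes was past 1.2-fold in any comparison. The second row of Col13a1 gave 1.84, 1.87 and 2.54 FPKM, with HFOB highest instead of lowest. The direction of Col13a1 in HFOB thus depended on the row.

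Short-chain collagens form hexagonal sheets under endothelia. Col8a2 stood at 1.44 FPKM (0.121 to 2.76), 2.19 (0.646 to 3.73) and 1.74 (0.0246 to 3.46), the widest log2 difference of HFLN from control at 0.39. Its second row gave 1.14, 1.38 and 1.13 FPKM. Col8a1 stood at 1.095, 0.980 and 0.805, with the opposite order between control and HFLN. At this level the intervals span most of the value itself.

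The 9 collagen genes below 1 FPKM in every group were Col2a1, Col9a1, Col10a1, Col17a1, Col19a1, Col22a1, Col24a1, Col25a1 and Col28a1, with highest group values from 0.0239 to 0.460 FPKM. Col7a1, which forms the anchoring fibrils below epithelia, shared its row with the microRNA gene Mir711. That row stood at 1.60 FPKM (0.392 to 2.82), 1.28 and 0.991 (0 to 2.02), a log2 difference of -0.39 in HFOB from control. Col20a1 shared a row with the unrelated gene Arfgap1 at 32.8, 33.2 and 33.1 FPKM, and its own level cannot be read from it.

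The enzymes and chaperones that make collagen in the endoplasmic reticulum were followed by a list of 22 genes, of which 20 had a row of their own and 1 FPKM. In HFLN against control 11 were higher and 9 lower (median log2 difference 0.02). In HFOB against control the counts were 6 and 14 (-0.08), and in HFOB against HFLN 6 and 14 (-0.04). Of all genes 49.6%, 53.9% and 53.4% were lower in these comparisons. Serpinh1, the collagen-specific chaperone, stood at 712, 786 and 741 FPKM. P4ha2, a subunit of prolyl 4-hydroxylase, was past 1.2-fold in both diet groups at 15.7, 11.9 and 12.7 FPKM. Plod2, a lysyl hydroxylase, was past it in HFOB against control at 130.03, 122 and 108, and Fkbp14, a prolyl isomerase, in HFOB against HFLN at 13.4, 14.2 and 11.4. P4ha2, Plod2 and Fkbp14 were on the lower side, within overlapping intervals.

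Of 13 genes of procollagen processing and cross-linking, 8 could be counted, and 7 of them were lower than control in each diet group. Of all genes 49.6% were lower in HFLN and 53.9% in HFOB. The medians of the 8 were -0.08 in HFLN and -0.12 in HFOB. Past 1.2-fold lower were 2 of 8 in HFLN, beside 8.39% of all genes, and 1 of 8 in HFOB, beside 7.25%. Pcolce2, an enhancer of procollagen C-proteinase, stood at 3.71, 0.671 and 0.747 FPKM. It reached the minimum of 1 FPKM only in control, so the filter fixed its direction in these counts. Lox, the lysyl oxidase that cross-links collagen, stood at 8.22, 6.60 and 7.13, past 1.2-fold in HFLN. For both Pcolce2 and Lox the deposited intervals of the groups overlapped. Against HFLN, HFOB had 4 of these 8 higher and 4 lower, with a median of 0.03. The row of Loxl2 with Mir6950 stood at 54.1, 46.1 and 35.1 FPKM. Pcolce, the far more abundant relative of Pcolce2, stood at 310.2, 303 and 281.

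Proteoglycans and organisers of fibrils leaned to the higher side by count: 11 of 13 were above control in each diet group, beside 50.4% of all genes in HFLN and 46.1% in HFOB, with medians of 0.11 and 0.10. By sum, at 1495, 1559 and 1426 FPKM, HFOB was instead below control. Sparc, the most abundant of the list, stood at 710, 727 and 615. In HFOB against HFLN 6 were higher and 7 lower, with a median of -0.03. Past 1.2-fold in HFOB against control were Prelp at 17.3 and 21.9 FPKM, Postn at 13.8 and 17.4 and Fmod at 4.97 and 6.31, all matrix proteins that bind fibrils and all higher, 3 of 13 beside 3.62% of all genes. Fn1, which encodes fibronectin, was past it on the lower side, at 115 in control, 111 in HFLN and 93.6 in HFOB. For Prelp, Postn, Fmod and Fn1 the deposited intervals of HFOB and control overlapped.

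Among 16 basement-membrane partners 15 could be counted. In HFLN 10 were higher and 5 lower than control (median 0.13), in HFOB 7 and 8 (-0.01), and 12 of 15 were lower in HFOB than in HFLN (-0.04). The shares of all genes that were lower were 49.6%, 53.9% and 53.4%. Hspg2, which encodes perlecan, stood at 147, 145 and 141 FPKM.

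Collagen receptors pass signals from the matrix into the cell. Of 11 counted, 7 were higher in HFLN and 6 in HFOB than in control, with medians of 0.04 and 0.03. In HFOB against HFLN 3 were higher, with a median of -0.05. Of all genes 50.4%, 46.1% and 46.6% were higher in these comparisons. None of the 11 was past 1.2-fold in any comparison, beside 3.62% to 8.39% of all genes in each direction. That share is too low for 11 genes to differ visibly from it. Itgb1, the shared beta subunit of collagen-binding integrins, stood at 131, 134.0 and 123 FPKM, and the receptor kinase Ddr1 at 48.8, 45.7 and 44.2.

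The TGF-beta list, which covers inducers and targets linked to collagen deposition, held 10 genes. Tgfb1, the ligand, stood at 57.0, 32.8 and 36.6 FPKM, at log2 differences of -0.78 and -0.63 with overlapping intervals. Ccn2, a target of that ligand, stood at 97.0, 84.0 and 103.1 FPKM and did not share that order. Over the list, 7 of 10 were lower in HFLN and 6 in HFOB than in control, with medians of -0.05 and -0.06. In HFOB against HFLN 6 were lower, with a median of -0.02. Among all genes 49.6%, 53.9% and 53.4% were lower in these comparisons. Beside the TGF-beta list, Col1a1 stood at 136, 142 and 121 FPKM and Col3a1 at 197, 205 and 190.0. Both were slightly above control in HFLN and below it in HFOB. Their relation to Tgfb1 was not tested.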

How the data were processed

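Per the labels, ovarian RNA of 9 mice in 3 groups was sequenced from libraries of a strand-specific messenger RNA kit. Cuffdiff 2.2.1.3, Cufflinks 2.2.1.0, TopHat2 2.1.0, Trimmomatic 0.32.3 and the build mm10 are named in the submitters' processing notes. The sources used here do not give the annotation, the scaling or the strand setting. The deposited values are FPKM, per the file headers, with the animals of a group combined into 1 value and a lower and upper bound of unstated confidence level. Of 36886 RefSeq identifiers, 99.2% matched RefSeq GRCm38.p6, the source of symbols and coordinates. Per symbol the row with the highest mean FPKM was used, and rows with several symbols (765) were left out. Differences were taken on log2(FPKM + 1), which understates low genes, with a minimum of 1 FPKM in 1 or more groups, and compared with 12604 protein-coding genes treated alike. A fold of 1.2 was a size rule, not a test. The calculation was tested on simulated data. Every collagen gene of at least 1 FPKM was named. Of each pathway list, members past 1.2-fold were named, otherwise the 2 with the highest FPKM; further list members and markers given as context were chosen after their values were seen. Some list members are not reported here. Members and lists were chosen with earlier results of these data known. Alternatives covered the pseudocount, the minimum, the scaling, the row per symbol, the status, merged rows and the fold. Analyses used Python 3.11.15 and pandas 2.3.3.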

Additional observations from a re-analysis of the deposited data

How the results depend on the processing

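No paired analysis was possible because the table holds 1 value per group, and for the same reason leaving out single animals could not be run. Among alternative values of medians and counts, 18 counts moved, 1 median changed sign, and 74 kept their direction and stayed within 0.1 (medians, log2) or within 1.5 times (counts). The median of HFOB against control changed sign, from -0.03 to 0.0147, when the 75th percentile of FPKM was made equal. That setting gave 4 genes higher in HFLN against control, 0 lower in HFOB against control and 1 lower in HFOB against HFLN, and setting the median gene difference to 0 gave 1 lower in HFOB against control. A pseudocount of 0.1 FPKM gave 4 higher in HFLN against control and 3 lower in HFOB against HFLN, and no pseudocount gave 4 and 4. A minimum of 5 FPKM gave 1 higher in HFLN against control. At 1.5-fold, 0 genes were higher in HFLN against control, 1 higher and 0 lower in HFOB against control and 0 higher in HFOB against HFLN. At 1.1-fold there were 8 higher and 2 lower, 6 higher and 7 lower, and 9 lower in HFOB against HFLN. Col9a2 and Col11a1 passed 1.2-fold in both comparisons of HFOB under every alternative that kept that fold, and Col9a2 alone passed 1.5-fold, against control. All 834 alternative values of single genes moved by less than the distance from the value to its deposited upper bound on the log2 scale, and none past 1.2-fold changed sign. This says little about stability. The minimum, the status and the merged rows cannot alter the difference of a single gene, and that distance is wider than most differences. Only the pseudocount, the scaling and, for genes with several rows, their sum could move such a value. Depth per library is unknown, so the precision of genes near 1 FPKM is set only by the deposited intervals.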
